A study of Mus musculus with 6 samples.

Results

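The genes described here encode the liver enzymes that oxidise drugs, toxins, steroids and fatty acids: cytochrome P450 enzymes of families Cyp1, Cyp2 and Cyp3, and Por, the reductase that passes them electrons. The 10 genes considered were Cyp1a2, Cyp2a5, Cyp2b10, Cyp2c29, Cyp2c37, Cyp2c55, Cyp2e1, Cyp3a11, Cyp3a13 and Por, and every array probe set annotated to exactly 1 of them was taken. That gave 10 probe sets for 8 genes, out of 45037 tested probe sets for 18193 genes. Cyp2a5 shares its only listed probe set with its close relative Cyp2a4. Por has no probe set in the annotation used here, so expression of Por was not analysed here. Each value is the authors' processed value of a probe set, read here as log2, and differences are 6C+4CP minus 10C throughout.

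The values come from livers of 6 male BALB/cCrSlc mice, an inbred albino strain, bought at 6 weeks of age, housed 1 to a cage and killed at 17 weeks. Both diets were low-protein powders based on AIN-93M, a purified diet for rodent maintenance, and each was eaten for 10 weeks by 12 mice, of which 3 with medium food efficiency were used. The 10C diet held 10% casein, and the 6C+4CP diet held 6% casein with 4% fish collagen peptide, so less casein and more collagen peptide came together and cannot be told apart. All 6 mice had gone 3 h without food and were anaesthetised with sodium pentobarbital before a piece of liver was taken, and each liver gave 1 Affymetrix array. The study design names 3 groups, and the other one is not analysed here. The titles number the mice of each diet 1 to 3 and pair none across diets.

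P450 enzymes sit in the endoplasmic reticulum membrane of hepatocytes and hold a heme group that binds oxygen. Some of their genes are switched on by receptors that sense foreign chemicals. AhR (Ahr) acts on Cyp1a2, the constitutive androstane receptor CAR (Nr1i3) on Cyp2b10 and the pregnane X receptor PXR (Nr1i2) on Cyp3a11. Many of these enzymes are densest in hepatocytes around the central vein, and inflammation is known to lower them. In bulk liver, fewer cells of a type and less RNA per cell cannot be told apart.

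Most probe sets of the table hold 1 value common to all 6 arrays, and a probe set was called varying where its highest and lowest values differed by more than 0.01. By that mark 7791 of 45037 probe sets (17.3%) varied. Of the varying probe sets 52.1% had a lower mean in 6C+4CP. The arrays' medians ran from 6.306 to 6.308. Hepatocyte markers were at 12.91 to 13.13 in 10C and 12.94 to 13.16 in 6C+4CP (mean of the 5 varying of 6 measured). The cholangiocyte, lymphocyte and adipocyte marker lists had 0 varying genes of 4, 5 and 2 measured. Across the varying probe sets, 10C replicate 3 correlated with 6C+4CP replicate 2 at r = 0.985 and with 10C replicates 1 and 2 at 0.971 and 0.973, as a description, since probe sets are not independent. Values without that mouse are given below for some, but not all, of the results it moved most. Of 45037 probe sets, limma called 109 between the diets at an adjusted p under 0.05 (0.242%; 0.0933% lower and 0.149% higher in 6C+4CP). Of the 7791 varying probe sets, 6 were among those called (0.077%). limma called 0 of 7791 when it was fitted to varying probe sets alone (0%), where 1140 had an unadjusted p under 0.05 (14.6%).

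No P450 gene in this set passed the test between the diets. Of the 8 genes with a probe set, Cyp1a2, Cyp2c29, Cyp3a11 and Cyp3a13 varied between mice, and Cyp2b10, Cyp2c37, Cyp2c55 and Cyp2e1 did not. Cyp2c29 had the widest gap, 1.54 times lower in 6C+4CP, and was the 1 varying member whose mice did not overlap between the diets, against 19.9% of all varying probe sets (9.11% lower and 10.8% higher; by gene, 21.4% of varying genes, 9.52% lower and 11.8% higher). Cyp1a2 and Cyp3a11 also had lower means in 6C+4CP, and Cyp3a13 a slightly higher one. The median difference of the 4 was -0.39, or -0.25 without 10C replicate 3, beside -0.0040 over all varying probe sets. By limma 0 of the 10 probe sets were called over all probe sets, and 0 in the fit to varying probe sets, with 1 at an unadjusted p under 0.05 in each fit (6.42% of all probe sets and 14.6% of varying ones had one).

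The stretches just in front of the start sites of the 4 varying genes are shown. Sites farther from the start, where receptors can also act, were not searched. Each is the 250 bases before the annotated start, read 5′ to 3′ on the gene's strand, from RefSeq on build GRCm38.p6, whose promoter table holds all 10 members. Cyp1a2 is chr9:57683656-57683905 (minus strand), Cyp2c29 chr19:39286835-39287084 (plus), Cyp3a11 chr5:145879855-145880104 (minus) and Cyp3a13 chr5:137921620-137921869 (minus). Capitals mark the letters AGGTCA or AGTTCA on either strand, the 6-base core bound by receptors such as PXR and CAR, and TATAAA on the gene's strand, the TATA box. The AhR core GCGTG was searched on both strands too. None of these motifs contains another.
Cyp1a2: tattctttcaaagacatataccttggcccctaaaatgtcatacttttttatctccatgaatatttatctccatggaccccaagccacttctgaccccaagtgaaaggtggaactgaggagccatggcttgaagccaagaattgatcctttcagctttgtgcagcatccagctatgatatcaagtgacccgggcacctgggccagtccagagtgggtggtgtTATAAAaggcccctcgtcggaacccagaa
Cyp2c29: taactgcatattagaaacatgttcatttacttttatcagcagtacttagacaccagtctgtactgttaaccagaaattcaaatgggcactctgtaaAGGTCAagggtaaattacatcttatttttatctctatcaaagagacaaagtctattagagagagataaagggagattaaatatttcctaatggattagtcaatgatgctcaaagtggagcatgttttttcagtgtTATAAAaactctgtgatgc
Cyp3a11: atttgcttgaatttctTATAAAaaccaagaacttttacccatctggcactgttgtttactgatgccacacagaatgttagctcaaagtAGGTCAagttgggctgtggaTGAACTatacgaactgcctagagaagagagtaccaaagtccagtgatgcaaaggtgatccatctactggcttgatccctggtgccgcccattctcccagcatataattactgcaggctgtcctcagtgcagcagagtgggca
Cyp3a13: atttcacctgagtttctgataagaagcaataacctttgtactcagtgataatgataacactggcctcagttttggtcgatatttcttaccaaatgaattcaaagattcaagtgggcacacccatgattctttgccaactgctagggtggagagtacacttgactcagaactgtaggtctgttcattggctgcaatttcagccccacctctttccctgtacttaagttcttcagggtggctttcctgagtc
Cyp2c29 held AGGTCA starting 154 bases before its start, and Cyp3a11 held AGGTCA at 162 and the reverse complement of AGTTCA at 142. The receptor core was found in 24.2% of 32851 promoters of this length, GCGTG in 28.2% and TATAAA in 7.59%. TATAAA began 29 bases before the start of Cyp1a2, 19 before that of Cyp2c29 and 234 before that of Cyp3a11. In Cyp3a13 none of the searched letters occurred, and GCGTG occurred in none of the 4 windows. Among the other members Cyp2b10 had GCGTG 2 times (101 and 9 bases before the start), and Por had it at 202, 62 and 24 bases. A match is only a match of letters, and the arrays do not measure binding at any of these places.

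Cyp1a2, a heme enzyme that oxidises caffeine and aromatic amines, read 11.35, 11.49 and 12.16 in the 10C mice (replicates 1 to 3). In the 6C+4CP mice it read 10.81, 11.40 and 11.29. The highest value was that of 10C replicate 3 and the lowest that of 6C+4CP replicate 1, and 10C replicate 1 lay below 6C+4CP replicate 2, so the diets overlapped. The 10C mean was 11.67 ± 0.43 (SD, n = 3) and the 6C+4CP mean 11.17 ± 0.31. The difference was -0.50 (SE 0.30, 95% interval -1.33 to 0.32, limma adjusted p = 0.822), and the exact permutation test gave p = 0.2 (two-sided, smallest possible 0.1). Leaving out 10C replicate 3 gave -0.26, and leaving out 6C+4CP replicate 1 gave -0.32. Among varying probe sets 7.3% had a difference at least as wide as that of Cyp1a2.

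Cyp2c29, a main P450 of mouse liver that oxidises arachidonic acid and drugs, read 13.32, 13.11 and 12.94 in the 10C mice. It read 12.44, 12.24 and 12.83 in the 6C+4CP mice. Every 10C mouse was above every 6C+4CP mouse, and the closest pair, 10C replicate 3 and 6C+4CP replicate 3, lay at 12.94 and 12.83. The means were 13.12 ± 0.19 (SD, n = 3) and 12.50 ± 0.30. The difference was -0.62 (SE 0.20, 95% interval -1.17 to -0.07), with an unadjusted p of 0.0358 and an adjusted p of 0.704 by limma over all probe sets, and an adjusted p of 0.229 in the limma fit to varying ones. The exact permutation test gave p = 0.1, the smallest that 3 against 3 mice allow. A difference at least this wide was found in 4.98% of varying probe sets. Without any 1 mouse it ran from -0.78 to -0.49.

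Cyp3a11, the main mouse enzyme of the family that clears steroids, bile acids and a large share of drugs, read 12.48, 12.15 and 12.43 in 10C. It read 12.14, 12.29 and 11.79 in 6C+4CP. The lowest mouse was 6C+4CP replicate 3, and 10C replicate 2 lay among the 6C+4CP values. The means were 12.36 ± 0.18 (SD, n = 3) and 12.07 ± 0.26, a difference of -0.29 (SE 0.18, 95% interval -0.77 to 0.20, limma adjusted p = 0.834). Without 6C+4CP replicate 3 it was -0.15.

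Cyp3a13, a relative of Cyp3a11 that is also made in the intestine, read 8.65, 8.44 and 8.84 in 10C and 8.68, 9.06 and 8.50 in 6C+4CP. The diets overlapped over most of their ranges. The difference was 0.10 (SE 0.20, 95% interval -0.44 to 0.64, limma adjusted p = 0.947), and it was -0.054 without 6C+4CP replicate 2 and 0.0024 without 10C replicate 2. The mouse highest for Cyp3a13, 6C+4CP replicate 2, was the lowest for Cyp2c29.

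**Figure D1:**
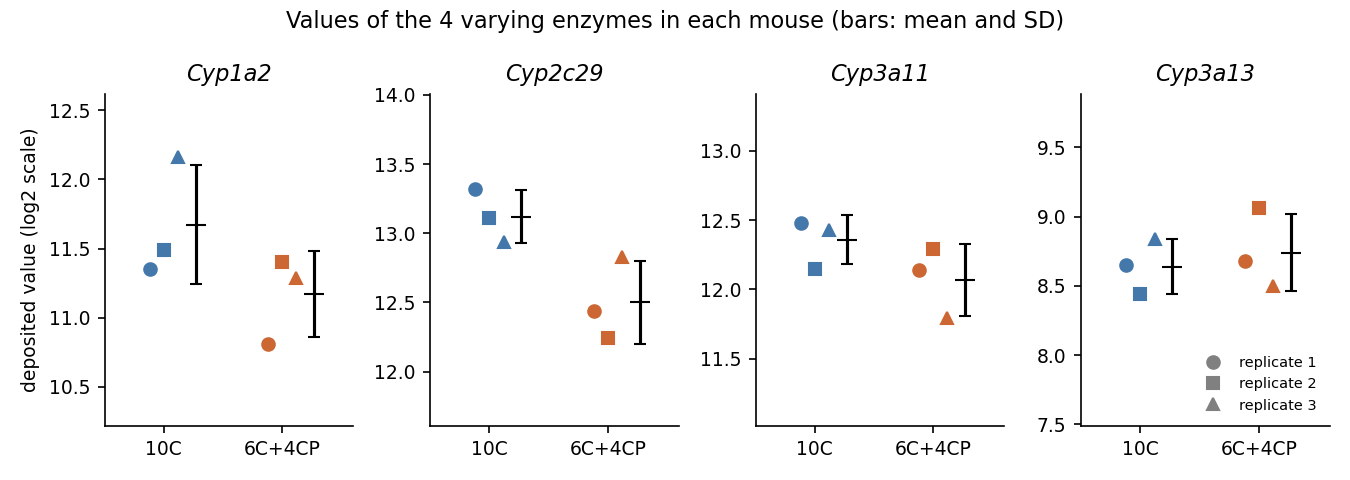
Deposited value (log2 scale) of Cyp1a2, Cyp2c29, Cyp3a11 and Cyp3a13 in each mouse, with 1 point per mouse, a symbol per replicate number, and black bars for the mean and SD of each diet (n = 3); all panels span the same height. The diets separate for Cyp2c29, with the lowest 10C mouse at 12.94 and the highest 6C+4CP mouse at 12.83, and overlap for the other genes.

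The other members with a probe set of their own held 1 value in all mice, so these values do not show whether their levels differed. Cyp2b10, the enzyme used as the standard readout of CAR, had 3 probe sets, at 5.71, 5.80 and 6.35 in all mice. Of all probe sets, 91.5%, 86.9% and 47.4% had a higher mean than these. Cyp2c55, an enzyme made mostly in the colon and inducible in liver, was at 6.41, and Cyp2c37, which makes epoxides and hydroxy acids of arachidonic acid, at 6.72. Among probe sets within 0.25 of the mean of each, 8.35% varied around Cyp2c55 and 13.0% around Cyp2c37, so a common value was usual at that brightness. Cyp2e1, which oxidises ethanol, acetone and paracetamol, was at 13.57 in all mice, and 0.0422% of probe sets were brighter. There 66.7% of the 21 probe sets within 0.25 of it varied. Between the members the mark of 0.01 split cleanly, since the narrowest range of a varying one was 0.614 (Cyp3a13) and the widest of the others 1.5e-06.

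**Figure D2:**
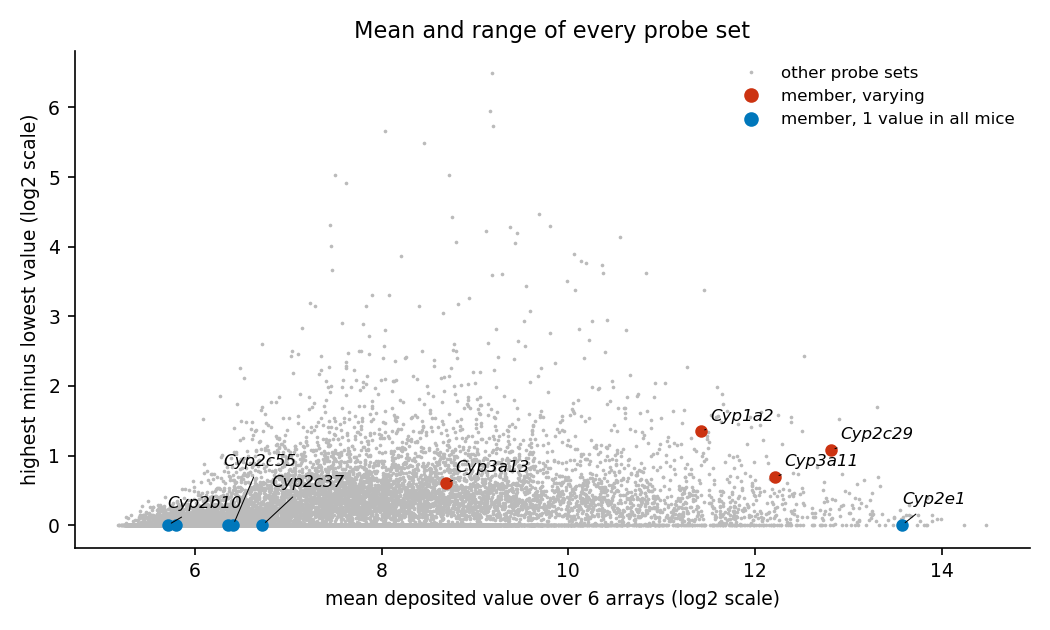
Mean of each probe set over the 6 arrays (log2 scale) against its highest minus lowest value (log2 scale), with the members in red where they varied and in blue where all mice shared 1 value. Cyp2b10 has 3 blue points and Cyp2e1, at 13.57, is the 1 bright blue member; Cyp1a2, Cyp2c29, Cyp3a11 and Cyp3a13 lie at ranges from 0.614 to 1.35.

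The probe set annotated to both Cyp2a5, which hydroxylates coumarin and nicotine, and Cyp2a4, a steroid hydroxylase, is counted for neither gene. It read 11.17, 10.38 and 12.43 in 10C and 10.41, 10.49 and 11.30 in 6C+4CP. The range within 10C was 2.05, wider than the gap between the diets of -0.59 (SE 0.65, limma adjusted p = 0.888), and 10C replicate 3 was again the highest mouse, as for Cyp1a2.

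Counted with their relatives, 43 genes of the Cyp1, Cyp2 and Cyp3 families had a probe set and 21 varied, beside 22.4% of all genes, each gene taken by its brightest probe set. Of these 21, 13 were lower and 8 higher in 6C+4CP, 0 were called by limma over all probe sets or over varying ones, and 5 did not overlap between the diets, beside 21.4% of all 4074 varying genes. The median difference of the 21 was -0.07, beside -0.0051 over all varying genes. The limma 95% intervals were wide, from -1.33 to 0.32 for Cyp1a2 and from -0.77 to 0.20 for Cyp3a11.

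Most varying genes of the Cyp2c subfamily had lower means in 6C+4CP, as Cyp2c29 did. Of 11 Cyp2c genes measured 7 varied, 6 lower and 1 higher, and the reference places the genes in a row, with Cyp2c66 before Cyp2c29 and Cyp2c39 and Cyp2c38 after it. Cyp2c70, which makes muricholic bile acids in the mouse, read 12.60, 12.65 and 12.78 in 10C. It read 12.05, 11.20 and 12.22 in 6C+4CP, lower in every mouse, with a difference of -0.85 (SE 0.32, limma adjusted p = 0.704), or -0.54 without 6C+4CP replicate 2. Cyp2c50 differed by -0.40 (SE 0.20, -0.28 without 10C replicate 3) and Cyp2c68 by -0.32 (SE 0.22), or -0.094 without 10C replicate 2, both with overlap. Cyp2c39 differed by -0.29 (SE 0.37), or -0.059 without 6C+4CP replicate 2. Cyp2c54, a neighbour of Cyp2c37 and Cyp2c50, had the widest gap of the varying P450 genes at -0.88 (SE 0.50), but it read 9.98, 9.41 and 10.96 in 10C against 8.82, 9.28 and 9.62 in 6C+4CP. It overlapped, and without 10C replicate 3 the difference was -0.46. Because paralogs of this cluster resemble each other, a probe set of 1 gene can also bind another's RNA.

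The 1 varying Cyp2c gene with higher values was Cyp2c23, an arachidonic acid epoxygenase. It read 8.27, 8.43 and 8.45 in 10C and 8.94, 8.68 and 9.42 in 6C+4CP, without overlap. The difference was 0.64 (SE 0.22, limma adjusted p = 0.704), or 0.43 without 6C+4CP replicate 3. Cyp2j9, a gene of the Cyp2j subfamily, read 6.41, 6.28 and 6.19 in 10C and 6.82, 6.57 and 6.68 in 6C+4CP, also without overlap (difference 0.39, SE 0.094, limma adjusted p = 0.572). Both were thus higher in 6C+4CP where Cyp2c29 was lower, by amounts that did not pass the test. The 10C values of Cyp2j9 lay near the arrays' medians of 6.306 to 6.308, far dimmer than those of Cyp2c29.

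In the Cyp3a subfamily 3 of 5 measured genes varied, and none separated the diets. Cyp3a25, a neighbour of Cyp3a11, read 13.02, 12.71 and 12.64 in 10C and 12.92, 12.79 and 12.84 in 6C+4CP. That is a difference of 0.064 (SE 0.12), or -0.012 without 10C replicate 3. The mouse highest for Cyp3a11, 10C replicate 1, was also highest for Cyp3a25. In the Cyp2b subfamily 1 of 4 varied, the female-biased Cyp2b9, which differed by 0.24 (SE 0.22) with overlap, or 0.076 without 6C+4CP replicate 3. In Cyp1, 1 of 3 varied, Cyp1a2 itself, and Cyp1a1 and Cyp1b1 held common values of 6.22 and 6.20.

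**Figure D3:**
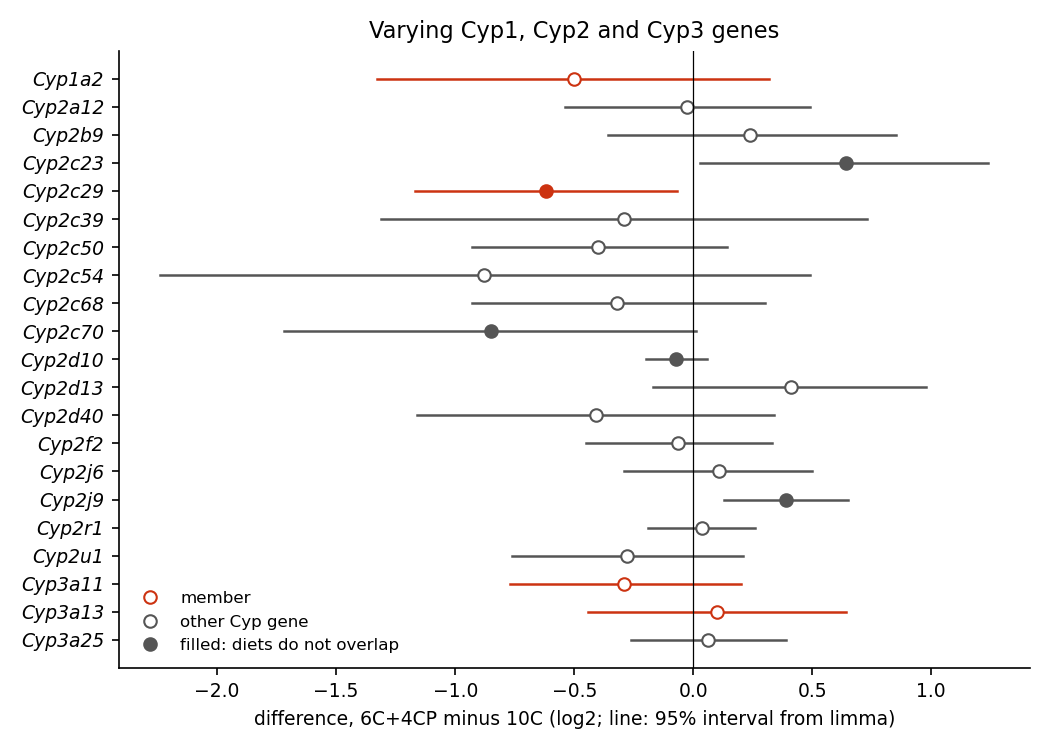
Difference between the diets (6C+4CP minus 10C, log2) of the 21 varying Cyp1, Cyp2 and Cyp3 genes, with limma's 95% interval as a line, members in red and filled points where the diets do not overlap. The Cyp2c genes lie below 0, from -0.88 for Cyp2c54 to -0.29 for Cyp2c39, except Cyp2c23 at 0.64.

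The mice did not keep a common order across these genes. 10C replicate 3 was the highest mouse in 7 of the 21 and the lowest in 4, and 6C+4CP replicate 3 was highest in 4 and lowest in 4. The median deviation of a mouse from the gene means was 0.027, 0.076 and 0.038 in 10C (replicates 1 to 3). In 6C+4CP it was -0.022, -0.028 and -0.026. These medians were positive in every 10C mouse and negative in every 6C+4CP mouse, but no array was high or low throughout the family. By the likeness rule, the genes whose values over the 6 arrays most resembled those of Cyp1a2 were Rpl37a, a ribosomal protein gene (Pearson r = 0.998 among 4070 varying genes), 4933440M02Rik (0.994) and Prodh, the first enzyme of proline breakdown (0.989). Prodh read 9.12, 9.16 and 9.81 in 10C and 8.74, 9.22 and 9.11 in 6C+4CP, so it shared the high value of 10C replicate 3 and the low value of 6C+4CP replicate 1. For Cyp3a11 they were Zc3h3 (0.972), Il1rap (0.969) and Chek2 (0.961). Some of these genes were dim and hardly changed. Chek2 read 6.22 or 6.23 in every mouse, and 4933440M02Rik ran from 5.79 to 5.99. These correlations rest on 6 arrays that share the diets and are descriptions. Cyp2b10 and Cyp2e1 have no pattern to match.

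**Figure D4:**
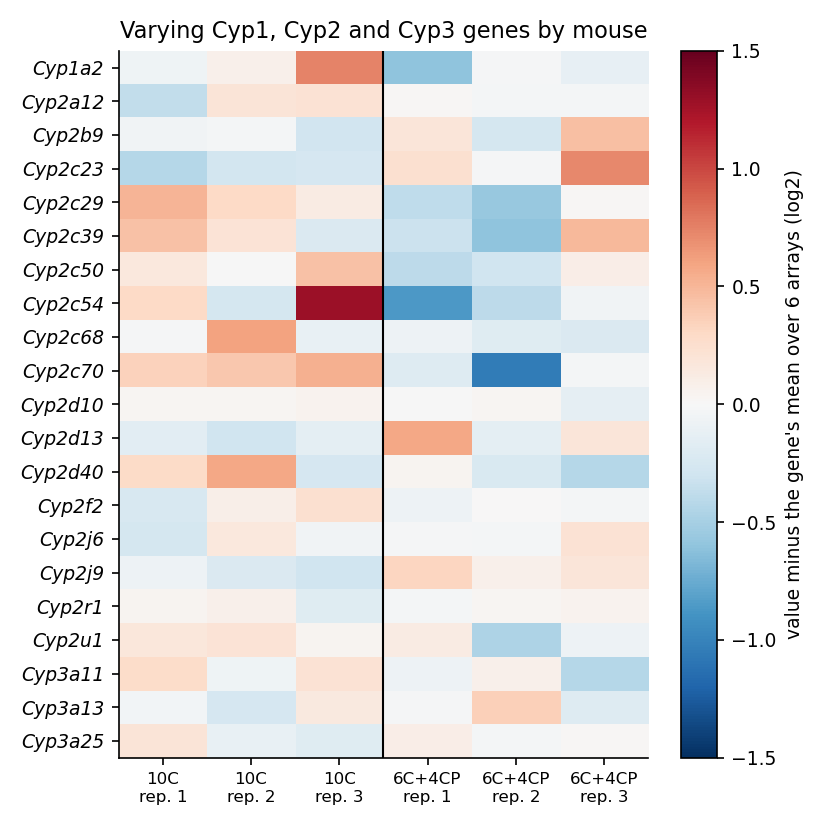
Value of each varying Cyp1, Cyp2 and Cyp3 gene in each mouse minus the gene's mean over the 6 arrays (log2; red above, blue below), with the line between the diets. 10C replicate 3 is far above the mean for Cyp1a2 and Cyp2c54, while Cyp2c29 and Cyp2c70 are red in all 3 10C mice.

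None of the receptors and transcription factors of these genes passed the test by limma. Of 21 measured regulators 15 varied, 13 with a higher mean in 6C+4CP and 2 with a lower one, where 52.1% of all varying probe sets were lower. Some of the 13 hardly differed, among them Foxa3 (0.0021), Ppargc1a (0.020) and Nrip1 (0.021). The median difference was 0.12, or 0.05 without 6C+4CP replicate 2, and 3 did not overlap (21.4% of all varying genes did not). Of these regulators 0 were called by limma (0.253% of all genes were), with 3 at an unadjusted p under 0.05 in the fit to varying probe sets (14.6% of all varying probe sets). Nr1i2, the PXR gene, read 7.54, 7.88 and 7.74 in 10C. It read 8.06, 8.40 and 7.93 in 6C+4CP, above 10C in every mouse (difference 0.41, SE 0.17, 0.27 without 6C+4CP replicate 2). Hnf4a, a nuclear receptor that keeps hepatocyte genes active, differed by 0.40 (SE 0.13) and Ppara, the fatty acid receptor, by 0.39 (SE 0.094), both without overlap. Nr1i3, the CAR gene, read 8.61, 8.50 and 9.39 in 10C and 9.56, 9.20 and 9.35 in 6C+4CP, with overlap through 10C replicate 3, and differed by 0.53 (SE 0.29), or 0.81 without that mouse. Ahr differed by 0.019 (SE 0.091), with values from 7.91 to 8.19 over all mice.

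Other genes known to respond to CAR and PXR had higher means more often than lower ones, 7 higher and 2 lower among 9 varying of 12 measured (median 0.33), with 4 higher and 1 lower without overlap, beside 11.8% and 9.52% of all varying genes, and 0 called. Aldh1a7, an aldehyde dehydrogenase, read 10.56, 10.44 and 9.70 in 10C and 11.19, 11.01 and 11.58 in 6C+4CP (difference 1.03, SE 0.31, limma adjusted p = 0.69). Abcc2, which pumps conjugates into bile, differed by 0.29 (SE 0.11), or 0.39 without 10C replicate 3, and Gstm1, a glutathione transferase, by 0.28 (SE 0.12, 0.17 without 10C replicate 3). Abcc3, which exports conjugates to blood, was the gene that went the other way without overlap, at 7.47, 7.74 and 7.83 in 10C against 7.19, 7.23 and 7.28 in 6C+4CP (difference -0.45, SE 0.11, limma adjusted p = 0.572). Of the AhR targets other than Cyp1a2, 6 were measured and 0 varied.

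Among the 6 varying genes of heme supply and electron transfer, 1 did not overlap between the diets, a share below the 21.4% of all varying genes. That gene, Cpox, the coproporphyrinogen oxidase of heme synthesis, read 9.25, 9.33 and 9.22 in 10C and 9.70, 9.56 and 9.64 in 6C+4CP. Its difference of 0.37 (SE 0.051) had an adjusted p of 0.328 by limma over all probe sets and of 0.101 over varying ones. Alas1, the first and limiting enzyme of heme synthesis, read 9.19, 10.12 and 10.75 in 10C and 11.27, 10.98 and 10.50 in 6C+4CP. That is a difference of 0.90 (SE 0.50) with overlap, or 1.26 without 10C replicate 3 and 0.48 without 10C replicate 1. Fech, which inserts the iron, differed by 0.030 (SE 0.020, 0.017 without 10C replicate 2 and 0.049 without 10C replicate 3) and Cyb5a, the cytochrome b5 that can donate electrons to P450s, by -0.021 (SE 0.052, 0.030 without 10C replicate 3). Of 16 genes measured 6 varied, 4 higher and 2 lower, and 0 were called. Their median difference was 0.063, or 0.0067 without 6C+4CP replicate 3 and 0.19 without 10C replicate 1.

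Of the enzymes that act with P450s on the same chemicals, 39 were measured and 30 varied, 21 with a higher mean in 6C+4CP and 9 with a lower one. Their median difference was 0.11, or 0.021 without 6C+4CP replicate 3. Without overlap were 8 higher and 2 lower, beside 11.8% and 9.52% of all varying genes. limma called 0 of them (0.253% of all genes were called), and 8 had an unadjusted p under 0.05 in the fit to varying probe sets, as 14.6% of all varying probe sets did. Gsta2, a glutathione transferase, had the widest gap at 1.43 (SE 0.33, limma adjusted p = 0.572), reading 8.09, 7.37 and 7.40 in 10C and 8.92, 8.73 and 9.52 in 6C+4CP. Ephx1, the microsomal epoxide hydrolase that opens the epoxides P450s make, read 9.91, 10.21 and 10.08 in 10C and 10.90, 10.87 and 10.50 in 6C+4CP. That is a difference of 0.69 (SE 0.15, limma adjusted p = 0.572). Of the glucuronosyl transferases, Ugt2b5 differed by 0.28 (SE 0.079) and Ugt2b37 by 0.19 (SE 0.042), both without overlap. Another transferase, Ugt2a3, went the other way without overlap, at -0.22 (SE 0.093), and so did Fmo2, at -0.92 (SE 0.39). Ugt2b1 (0.0029) and Ugt2b38 (-0.018) hardly differed.

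**Figure D5:**
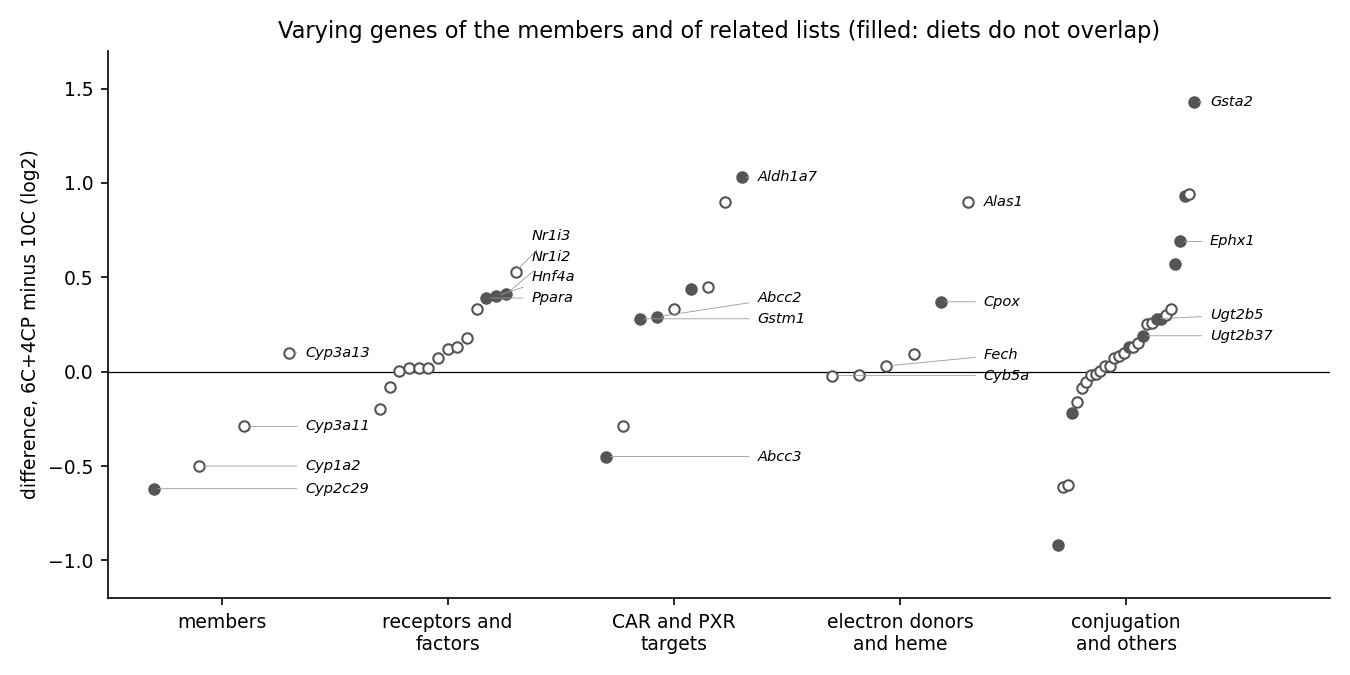
Difference between the diets (6C+4CP minus 10C, log2) of every varying gene among the members, the regulators, the CAR and PXR targets, the electron donors and heme genes and the conjugating enzymes, with filled points where the diets do not overlap; Alas1, Gstm1 and Gstm3 stand in a pair of lists. Cyp2c29, Cyp1a2 and Cyp3a11 lie below 0, while 13 of 15 regulators and 21 of 30 conjugating enzymes lie above it, some of them only just. Of all varying probe sets 52.1% were lower in 6C+4CP.

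Markers of inflammation, lobule zone, cell type and sex were read beside the members. The acute phase gene Saa1, which is high in inflammation, read 14.03 in 10C replicate 2, against 7.54 to 9.13 in the other mice, and without that mouse the difference of Cyp1a2 was -0.59, that of Cyp2c29 -0.63, that of Cyp3a11 -0.39 and that of Cyp3a13 0.0024. The acute phase list was at 9.15 to 10.98 in 10C and 9.13 to 9.63 in 6C+4CP (mean level of the 7 varying genes of 8 measured). Markers of pericentral hepatocytes other than the members had mean levels of 9.32 to 9.46 in 10C and 9.20 to 9.45 in 6C+4CP (7 varying of 9 measured, 5 lower and 2 higher). Among them Glul, the classic marker of cells at the central vein, differed by -0.068 (SE 0.071, -0.12 without 6C+4CP replicate 1 and -0.021 without 10C replicate 1), and Gulo by -0.40 (SE 0.10) without overlap. Periportal markers were at 11.35 to 11.64 and 11.48 to 11.58 (5 varying of 7), with Hsd17b13 at 0.20 (SE 0.021) and Hal at -0.26 (SE 0.074), both without overlap. Kupffer cell markers were at 8.27 to 8.76 and 8.03 to 8.60 (6 varying of 9). Male-biased genes, set by growth hormone pulses that also act on many P450 genes, were at 9.48 to 10.50 and 9.52 to 9.89 (5 varying of 7), and female-biased ones at 6.31 to 6.50 and 6.35 to 6.64 (3 varying of 6). Elovl3, male-biased and clock-driven, read 8.26, 9.49 and 12.47 in 10C and 8.18, 10.98 and 9.46 in 6C+4CP, highest in 10C replicate 3 as Cyp1a2 was. The other varying male-biased genes were each highest in a different mouse from that one. Hsd3b5 (11.66, 11.68 and 10.93 in 10C) and Cyp4a12a (10.68, 10.94 and 10.59) were lowest among the 10C mice in replicate 3. The part of these properties in the values of the members was not tested.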

How the data were processed

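Liver RNA of 3 mice per diet was hybridised to 1 Affymetrix 3' array each, from 100 ng of total RNA per the labels' protocols. Samples were grouped by title. The log2 values are those the authors deposited in the series' value table, made with R 2.7.2 per the submitters' processing notes, and were used unchanged. No source used here gives the summary method or the base of the logarithm, and folds assume base 2. They run from 4.757 to 14.48. No counts or background signals come with them, so 3 arrays per diet set the precision.

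Of 45101 probe sets 64 controls were left out. GEO's platform annotation gave 1 symbol for 34945 of the rest, several for 932 and none for 9160; Entrez identifiers matched RefSeq for 34741 and changed 0 symbols. The files name no genome build. A gene in a list is its probe set of highest mean.

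limma 3.58.1 under R 4.3.3 compared the diets over all probe sets (lmFit and eBayes on 6 arrays without covariates). The threshold was 0.05 on the p adjusted by Benjamini and Hochberg's method. SE and 95% intervals come from that fit. Its recovery of added differences was checked on simulated data, and the coverage of its intervals was not. Alternatives were a replicate block, each array left out, varying probe sets only, quantile normalization, median centring, brighter probe sets only, an intensity trend with robust estimation, adjusted p under 0.1, a minimum range of 0.05, and other choices of a gene's probe set. Replicate numbers were not taken as pairs.

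The members, lists and rules were chosen with earlier results of these data known. Genes were named by every member probe set, up to 4 genes of smallest p per related list, and the 3 most alike genes of Cyp1a2 and Cyp3a11. Further genes named, among them Cyp2c54, Cyp2c39, Cyp2c68, Cyp3a25, Cyp2b9, Cyp1a1, Ugt2a3, Fmo2 and Elovl3, were chosen after their values were seen. Lists covered endothelial, stellate, erythroid, pancreatic acinar, cholangiocyte, lymphocyte and adipocyte markers too, with 1, 3, 1, 1, 0, 0 and 0 varying genes.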

Additional observations from a re-analysis of the deposited data

How the results depend on the processing

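In 0 of the alternatives was a member probe set called, and over the 13 alternatives with a value the limma adjusted p ran from 0.229 to 1 for Cyp2c29, 0.465 to 1 for Cyp1a2, 0.478 to 1 for Cyp3a11 and 0.642 to 1 for Cyp3a13. The number of probe sets called over the array was 109, 3 with the replicate block, 1 after quantile normalization and 0 after median centring, among brighter probe sets, among varying probe sets or with an intensity trend and robust estimation. It ran from 285 to 398 when 1 array was left out, and the cause was not tested. Of the 109 called in the main fit, 6 were varying probe sets, and the rest ranged over 0.01 or less across all mice. Called genes of the related lists numbered 0, or 0 to 2 when 1 array was left out. Those were Hsd17b13 (adjusted p = 0.0357 without 6C+4CP replicate 2) and 3 genes with values common to all mice, Clec4g, Cyp1b1 and Sult1e1. The median difference of the varying members ran from -0.49 to -0.25 when 1 array was left out. It was -0.39 with the replicate block, which cannot change a difference in this balanced design. The block changed no call of a member or related gene. Same-numbered mice correlated in their deviations from the diet means at 0.477, -0.0893 and 0.0847, and differently numbered ones at -0.573 to 0.401. Deviations within a diet of 3 mice are tied to each other, so these values cannot decide whether the numbers pair mice. Of 42 gene differences followed, 5 changed sign in 8 of 545 alternative values. Many of the 545 could not move. The replicate block, the fits to varying or brighter probe sets, the intensity trend and the 0.1 threshold leave a difference unchanged by construction. The share that changed sign is therefore no measure of stability. When 1 array was left out the ranges were -0.054 to 0.22 for Cyp3a13, -0.063 to 0.075 for Ahr, -0.012 to 0.18 for Cyp3a25, -0.057 to 0.030 for Cyb5a and -1.44 to 0.67 for Elovl3, and Cyb5a was 0.013 after quantile normalization. With 3 mice per diet no exact test can pass 0.05, and the values common to all mice of Cyp2b10, Cyp2c37, Cyp2c55 and Cyp2e1 allow no comparison.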
